A study of Mus musculus with 5 samples.

Results

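Toll-like receptors are pattern recognition receptors of myeloid cells, and 10 mouse genes of this system were described in MN1-transformed myeloid progenitors with and without Mll1. They were taken by gene name from the 31626 genes of each library. They comprise the receptor genes Tlr1, Tlr2, Tlr3, Tlr4, Tlr6, Tlr7 and Tlr9, the lipopolysaccharide co-receptor genes Cd14 and Ly96, and the adaptor gene Myd88. RNA sequencing covered 2 Mll1 knockout libraries (labelled MLL1 -/-, transduced with Cre) and 3 control libraries (MLL1 flox/flox, transduced with a control). All 5 came from C57Bl/6 common myeloid progenitors, the precursors of granulocytes, monocytes, erythrocytes and platelets, transformed by the retroviral construct MSCV-MN1-IRES-GFP. The cells grew with IL3, IL6 and SCF and were sorted at day 7 after Cre induction. No library of Cre-transduced cells with wild type Mll1 was analysed here, so exposure to Cre and loss of Mll1 cannot be told apart.

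Lipopolysaccharide of bacteria is passed by the LPS-binding protein to CD14 and then to TLR4 and its partner MD-2, which Ly96 encodes. TLR2 pairs with TLR1 or TLR6 at the cell surface to recognise lipopeptides, whereas TLR3, TLR7 and TLR9 sense nucleic acids in endosomes, where the chaperone UNC93B1 takes them. Most of these receptors signal through MyD88 and IRAK kinases to NF-kB and MAP kinases. TLR3 uses the adaptor TRIF, encoded by Ticam1, and TLR4 uses both routes. Early haematopoietic progenitors as well as mature myeloid cells can carry such receptors.

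The values are FPKM, fragment numbers scaled by gene length and by library size, so levels of different genes can be set side by side. Absolute depth is unknown, but for 9 of the 10 genes all values were whole multiples of a common step within 0.0026 of a whole number, and the smallest such numbers are given below as reads. The FPKM worth of 1 read differed between libraries by factors of 0.9798 to 1.0177 of that in control replicate 1. Nothing in the labels ties replicates to separate mice or cultures, so the spread behind each p-value may be technical. The targeted gene Mll1 stood at 6.22 and 5.32 FPKM in the knockout libraries, against 9.67, 7.28 and 7.19 FPKM in the controls, with a limma adjusted p of 0.158. Which exons were floxed is not given, and reads from the remaining exons would still count, so this value is a weak check of the labels. The progenitor markers Kit (61.0 and 57.1 FPKM in knockouts, 112, 75.4 and 64.6 FPKM in controls) and Mpo (2385 and 2509 FPKM in knockouts, 1303, 694 and 775 FPKM in controls) were well above 0 in every library. Markers of B cells summed to between 0.818 and 1.87 FPKM and markers of T and NK cells to between 0.226 and 0.347 FPKM per library.

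Control replicate 1 stood apart from the other controls. Neutrophil markers summed to 22419 and 20686 FPKM in the knockout libraries, against 6411 FPKM in control replicate 1 and 794 and 1055 FPKM in control replicates 2 and 3. Of the 12 genes of that list, 11 and 10 reached 1 FPKM in the knockouts, 10 in control replicate 1 and 8 in each of the other controls, and none was at 0 in all libraries. S100a8 and S100a9 supplied most of that sum, with S100a8 at 11794 and 10986 FPKM in the knockouts, against 3129, 347 and 485 FPKM in the controls. The granule protein genes Camp, Ngp and Ltf were lower in both knockouts than in control replicate 1 and higher than in the other controls, with Ngp at 64.7 and 58.3 FPKM in the knockouts, against 106, 4.05 and 4.52 FPKM in the controls. Mmp8, at 52.5 and 54.4 FPKM in the knockouts, against 38.7, 65.03 and 64.3 FPKM in the controls, was highest in control replicates 2 and 3. Monocyte and macrophage markers summed to 306 and 269 FPKM in the knockouts, against 273, 106 and 85.9 FPKM in control replicates 1, 2 and 3; 4 and 4 of the 11 genes reached 1 FPKM in the knockouts and 7, 5 and 5 in the controls. Ly6c2 supplied most of this sum, at 267 and 225 FPKM in the knockouts, against 173, 40.4 and 34.5 FPKM in the controls. The chemokine receptor gene Ccr2 ran the other way, at 5.93 and 6.59 FPKM in the knockouts, against 17.4, 19.2 and 15.9 FPKM in the controls, and Cx3cr1 was also lower in both knockouts than in every control. Csf1r and Adgre1 were highest in control replicate 1. The median log2 difference of the monocyte and macrophage list, knockout minus control, was -0.10, and that of the neutrophil list was 1.05. C1qa, a complement gene of macrophages on that list, was at 0 in 4 libraries and at 0.0320 FPKM in control replicate 3. The part of these cells in the values below was not tested, and in bulk RNA fewer cells of a type and less RNA per cell cannot be told apart. Results are therefore also given without control replicate 1.

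None of the 10 genes was called at a limma adjusted p under 0.05 with all libraries. In that comparison 3.82% of the 11780 genes tested were called higher and 5.97% lower in the knockouts. Tlr1, Tlr3 and Tlr9 did not pass the filter of at least 1 FPKM in at least 2 libraries, which left 7 genes. Of these 7, Myd88 alone had an unadjusted p under 0.05, against 29.8% of all genes tested. The median log2 change of the 7, knockout minus control on log2(FPKM + 1), was 0.17, beside -0.03 over all genes tested. Without control replicate 1, Cd14, Tlr4 and Myd88 were called higher and none lower, where 11.9% of all genes were called higher and 18.0% lower.

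**Figure D1:**
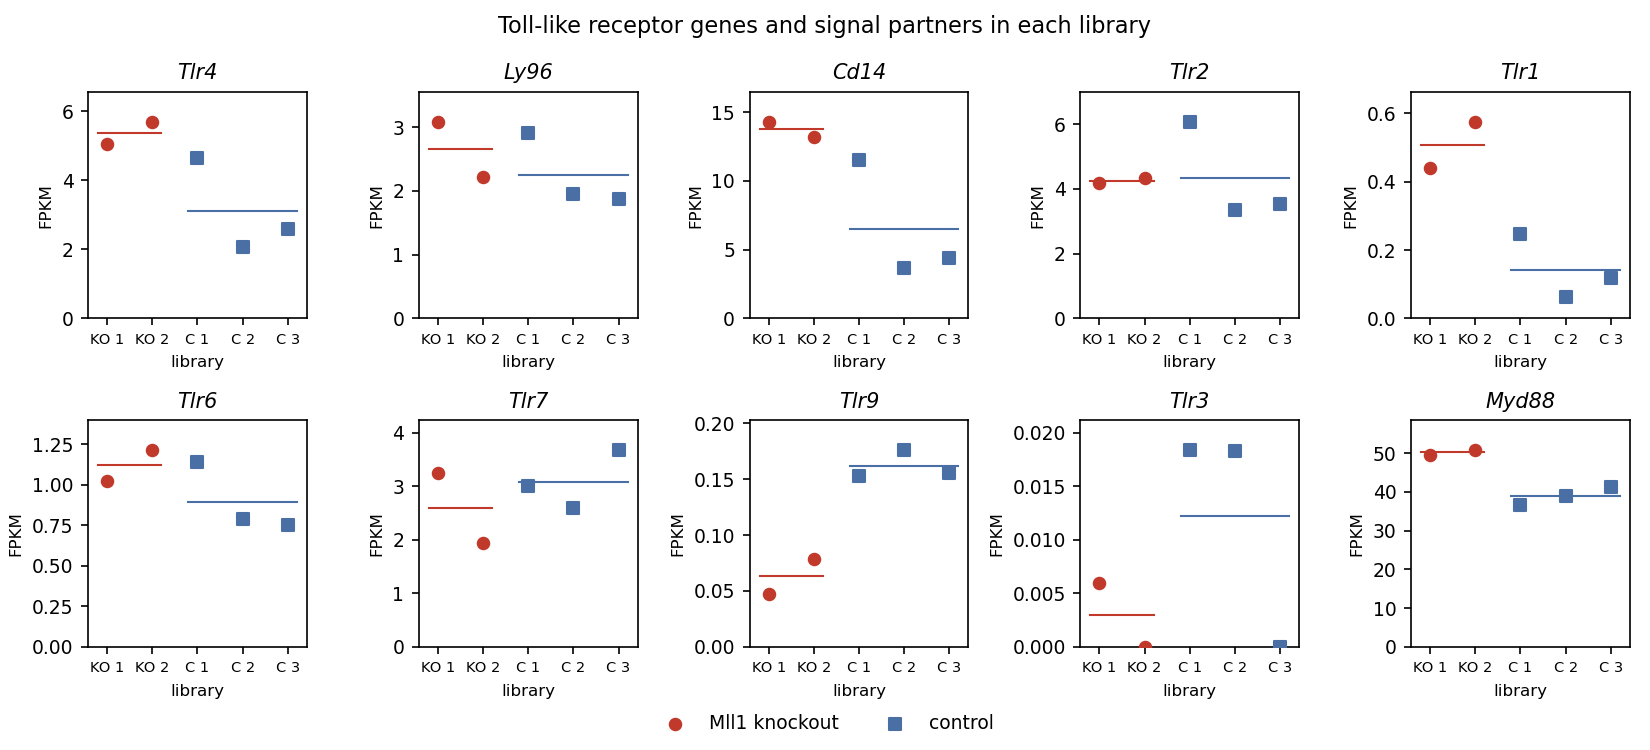
FPKM (linear axes, each from 0) of the 10 genes in knockout libraries KO 1 and KO 2 (red circles) and control libraries C 1 to C 3 (blue squares), with group means as lines. Tlr4, Cd14, Tlr1 and Myd88 lay above every control in both knockouts and Tlr9 below every control, while for Cd14 and Tlr4 control replicate 1 stood near the knockouts. Over all genes tested, 22.9% lay above every control in both knockouts and 29.4% lay below. Tlr1 and Tlr9 did not pass the filter and are not among the genes tested.

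The genes of the lipopolysaccharide receptor complex stood at unequal levels, and none was called with all libraries. Cd14 (ENSMUSG00000051439), the surface protein that hands lipopolysaccharide to TLR4, stood at 14.3 and 13.2 FPKM in the knockout libraries, against 11.6, 3.64 and 4.37 FPKM in control replicates 1, 2 and 3. These values rest on 793 and 729 reads in the knockouts and 627, 199 and 233 reads in the controls. Both knockouts lay above every control, but control replicate 1 lay much closer to them than to the other controls. The means were 13.7 ± 0.803 FPKM (SD, n = 2) in knockouts and 6.52 ± 4.37 FPKM (SD, n = 3) in controls, a log2 change of 1.12 with a standard error of 0.45 and a limma adjusted p of 0.178. Without control replicate 1 the log2 change was 1.56 (limma adjusted p = 0.00504). Against control replicate 1 alone, the knockout mean of Cd14 was 1.19-fold higher.

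Tlr4 (ENSMUSG00000039005), the signalling receptor of the complex, stood at 5.06 and 5.70 FPKM in the knockouts (745 and 838 reads), against 4.64, 2.07 and 2.58 FPKM in the controls (669, 300 and 366 reads). Again both knockouts lay above every control and control replicate 1 lay nearest to them. The neutrophil marker sum was likewise higher in both knockouts than in control replicate 1 and higher in control replicate 1 than in the other controls, and the monocyte marker sum of control replicate 1 lay between those of the knockouts. Single markers of both lists did not all have that order, as given above; the part of such cells in the values of Cd14 and Tlr4 was not tested. The log2 change of Tlr4 was 0.69 with a standard error of 0.28 (limma adjusted p = 0.18), and 0.94 without control replicate 1 (adjusted p = 0.0145). The knockout mean of Tlr4 was 1.16-fold that of control replicate 1 and 2.31-fold the mean of the other controls.

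Ly96 (ENSMUSG00000025779), whose product MD-2 binds the lipid part of lipopolysaccharide, showed overlapping groups. Its levels were 3.09 and 2.22 FPKM in the knockouts, against 2.91, 1.95 and 1.87 FPKM in the controls. Only 53 and 38 reads lay behind the knockout values and 49, 33 and 31 behind the controls. The exact Poisson interval (95%, counting error only) of knockout replicate 2, 26.9 to 52.2 reads, held all the control counts. That of knockout replicate 1, 39.7 to 69.3 reads, held the count of control replicate 1 but not those of control replicates 2 and 3. The log2 change of Ly96 was 0.17 with a standard error of 0.20 (limma adjusted p = 0.609). The ratio of Ly96 to Tlr4 FPKM was 0.610 and 0.389 in the knockouts, against 0.628, 0.942 and 0.726 in the controls. Ly96 thus stood below Tlr4 in every library. Cd14 stood above Tlr4 in every library, with Cd14 to Tlr4 ratios of 2.83 and 2.31 in the knockouts, against 2.49, 1.76 and 1.69 in the controls.

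Among the lipopeptide receptors, Tlr2 (ENSMUSG00000027995), the shared subunit, showed overlapping groups. Tlr2 stood at 4.18 and 4.34 FPKM in the knockouts (440 and 457 reads), against 6.08, 3.36 and 3.55 FPKM in the controls (628, 349 and 360 reads). Control replicate 1 was the highest library for Tlr2, and the knockouts lay between it and the other controls. The log2 change was 0.02 with a standard error of 0.24 (limma adjusted p = 0.972), and 0.24 without control replicate 1 (adjusted p = 0.0899). The ratio of Tlr2 to Tlr4 FPKM was 0.825 and 0.762 in the knockouts, against 1.31, 1.62 and 1.37 in the controls, with control replicate 1 on the side of the controls.

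Tlr6 (ENSMUSG00000051498) and Tlr1 (ENSMUSG00000044827), the alternative partners of Tlr2, are neighbouring genes and similar in sequence. Of the 50-base stretches of the longest Tlr1 transcript, 15.3% also occur in Tlr6. How reads from these stretches were assigned is not given, so both values are uncertain. Tlr6 stood at 1.03 and 1.21 FPKM in the knockouts, against 1.14, 0.788 and 0.753 FPKM in the controls, with overlapping groups and a log2 change of 0.17 (limma adjusted p = 0.534). Tlr1 was far lower, at 0.439 and 0.576 FPKM in the knockouts (42 and 55 reads), against 0.246, 0.0637 and 0.120 FPKM in the controls (23, 6 and 11 reads). Both knockouts lay above every control for Tlr1, although the exact Poisson intervals (95%) of knockout replicate 1, 30.3 to 56.8 reads, and control replicate 1, 14.6 to 34.5 reads, overlapped. The interval of knockout replicate 2, 41.4 to 71.6 reads, lay above that of control replicate 1, and both knockout intervals lay above those of control replicate 2, 2.20 to 13.1 reads, and control replicate 3, 5.49 to 19.7 reads. In a fit with no filter, which tested 22571 genes, Tlr1 had a log2 change of 0.40 and a limma adjusted p of 0.105. Tlr6 exceeded Tlr1 2.33-fold and 2.11-fold in the knockouts, against 4.65-fold, 12.4-fold and 6.30-fold in the controls.

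None of the endosomal receptor genes was called, and the knockout mean was below the control mean for Tlr7, Tlr9 and Tlr3. Tlr7 (ENSMUSG00000044583), a sensor of single-stranded RNA, stood at 3.24 and 1.94 FPKM in the knockouts, against 3.001, 2.59 and 3.68 FPKM in the controls. The knockout libraries of Tlr7 differed from each other by more than the group means did, and its log2 change was -0.20 with a standard error of 0.21 (limma adjusted p = 0.567). Tlr9 (ENSMUSG00000045322), a sensor of unmethylated CpG DNA, stood at 0.0473 and 0.0790 FPKM in the knockouts (6 and 10 reads), against 0.153, 0.176 and 0.156 FPKM in the controls (19, 22 and 19 reads). Both knockouts lay below every control for Tlr9. Its mean was 0.0631 ± 0.0224 FPKM in knockouts (SD, n = 2) and 0.162 ± 0.0126 FPKM in controls (SD, n = 3), and in the fit with no filter its log2 change was -0.13 (limma adjusted p = 0.0781). Exact Poisson intervals (95%) of Tlr9 were 4.80 to 18.4 reads in knockout replicate 2 and 11.4 to 29.7 reads in control replicate 1, and these overlapped. Of the pairs of a knockout and a control library, knockout replicate 1 (2.20 to 13.1 reads) and control replicate 2 (13.8 to 33.3 reads) alone had intervals that did not overlap.

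Tlr3 (ENSMUSG00000031639), which senses double-stranded RNA, was close to the limit of detection. It had 1 read in knockout replicate 1 and was listed at 0 in knockout replicate 2, against 3 reads in each of control replicates 1 and 2 and a listed 0 in control replicate 3. No difference in Tlr3 was detectable at this depth. Its reads were inferred from 3 libraries, which gives a weaker fit than the 5 libraries behind the other genes.

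The remaining 5 mouse Toll-like receptor genes also failed the filter. Tlr12, a mouse receptor for profilin of protozoan parasites, stood at 0.0749 and 0.0667 FPKM in the knockouts (9 and 8 reads), against 0.841, 0.785 and 0.545 FPKM in the controls (99, 93 and 63 reads). Both knockouts lay below every control, including control replicate 1, and the control mean of Tlr12 was 10.2-fold the knockout mean. With no filter the log2 change of Tlr12 was -0.68 and its limma adjusted p 0.0524. Tlr5, the flagellin receptor gene, stood at 0.636 and 0.356 FPKM in the knockouts, against 0.531, 0.486 and 0.403 FPKM in the controls. Tlr13, a mouse sensor of bacterial ribosomal RNA, had 22 and 17 reads in the knockouts, against 110 reads in control replicate 1 and 12 reads in each of the others, so the high value belonged to that control. Tlr8, the neighbour of Tlr7, stood at 0.0822 and 0.0990 FPKM in the knockouts, against 0.176, 0.0250 and 0.0171 FPKM in the controls. Tlr11 was listed at 0 in 4 libraries and at 0.00905 FPKM in control replicate 1.

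**Figure D2:**
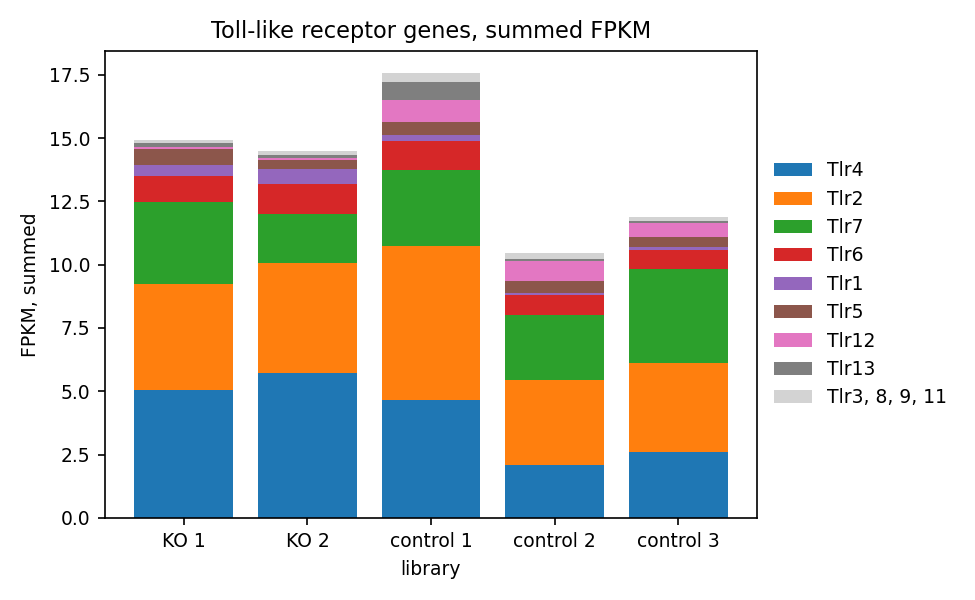
Summed FPKM of the 12 mouse Toll-like receptor genes in each library (stacked bars, linear axis from 0), coloured by gene. The sums were 14.9 and 14.5 FPKM in the knockouts and 17.6, 10.4 and 11.9 FPKM in control replicates 1, 2 and 3, and the Tlr4 segment was the tallest in both knockouts.

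Tlr4, Tlr2 and Tlr7 made up most of the Toll-like receptor RNA in every library. The share of Tlr4 in the summed FPKM of the 12 receptor genes was 33.9% and 39.4% in the knockouts, against 26.4%, 19.8% and 21.7% in the controls. The Tlr4 share was 36.6% ± 3.86 in knockouts (SD, n = 2) and 22.7% ± 3.40 in controls (SD, n = 3), and it did not overlap between groups even with control replicate 1. Such separation was common: of all genes tested, 22.9% had both knockouts above every control in FPKM and 29.4% had both below. Tlr1, Tlr9 and Tlr12 did not pass the filter, and no such share was computed for genes that low. Tlr2 held 27.96% and 29.97% in the knockouts, against 34.6%, 32.2% and 29.86% in the controls, with overlapping groups. Tlr7 held 21.7% and 13.4% in the knockouts, against 17.1%, 24.8% and 31.0% in the controls.

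In order of level in the knockouts, Myd88 was followed by Cd14, Tlr4, Tlr2, Ly96, Tlr7, Tlr6, Tlr1, Tlr9 and Tlr3, and of these neighbours only Ly96 and Tlr7 had overlapping ranges. In the controls the order was Myd88, Cd14, Tlr2, Tlr4, Tlr7, Ly96, Tlr6, Tlr9, Tlr1 and Tlr3. There the ranges of neighbours overlapped from Cd14 down to Ly96 and between Tlr9 and Tlr1. The ranges of Tlr4 and Tlr2 overlapped across the controls, but within each library the order was the same in a group: Tlr4 exceeded Tlr2 in both knockouts, and Tlr2 exceeded Tlr4 in all 3 controls.

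Myd88 (ENSMUSG00000032508), the adaptor shared by most of these receptors, had the smallest p of the 7 genes tested. It stood at 49.6 and 50.8 FPKM in the knockouts (3353 and 3429 reads), against 36.7, 38.9 and 41.3 FPKM in the controls (2430, 2592 and 2687 reads). All knockout values exceeded all control values, and control replicate 1 was the lowest library rather than one near the knockouts. The log2 change of Myd88 was 0.36 with a standard error of 0.08, an unadjusted p of 0.00605 and a limma adjusted p of 0.0549. Without control replicate 1 the log2 change was 0.32 and the adjusted p 0.0245, and Myd88 was also called after median-ratio scaling (adjusted p = 0.0307) and after quantile normalization (adjusted p = 0.0452). The number of all genes called higher also went from 450 to 597 and 518 with that scaling and that normalization. Myd88 overlaps exons of Acaa1a on the opposite strand, and the use of strand in the counting is not given. Acaa1a stood at 18.3 and 16.6 FPKM in the knockouts, against 18.4, 24.9 and 18.9 FPKM in the controls. The part of Acaa1a reads in the Myd88 value was not tested. Both knockout libraries lay above every control for 3 of the 7 genes tested (Cd14, Tlr4 and Myd88) and below for none, where over all genes tested the shares were 22.9% and 29.4%.

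**Figure D3:**
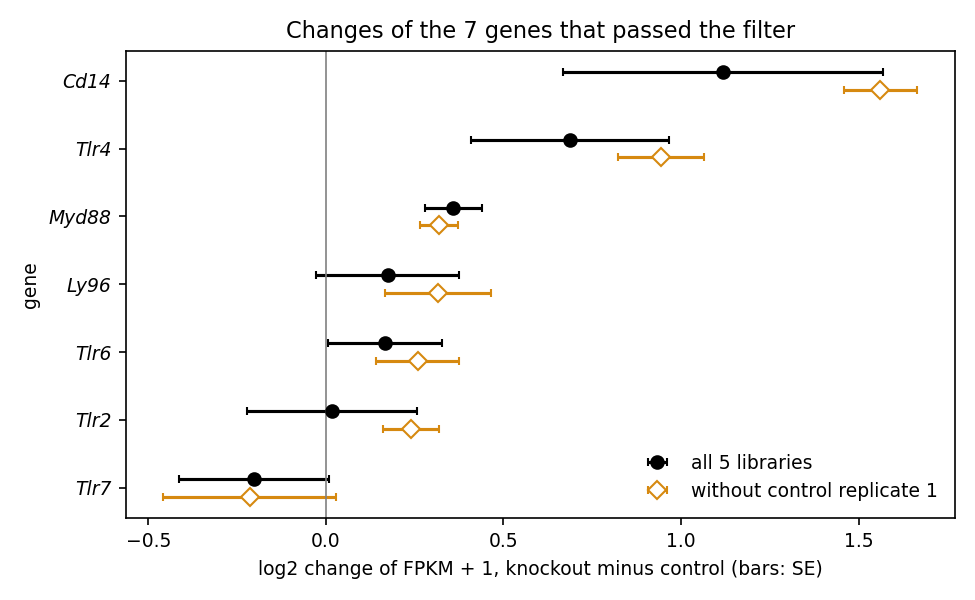
Log2 change of FPKM + 1 (knockout minus control, bars SE) of the 7 genes that passed the filter, with all 5 libraries (black circles) and without control replicate 1 (open orange diamonds). Leaving out that library moved Cd14 to 1.56 and Tlr4 to 0.94 with smaller standard errors, while Myd88 moved to 0.32.

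Around these genes, 98 further genes of the pathway were listed, of which 77 passed the filter; 7 rose and 3 fell in the knockouts (limma adjusted p under 0.05), where 3.82% of all genes tested rose and 5.97% fell. Their median log2 change was 0.05, beside -0.03 over all genes tested. Without control replicate 1, 16 of the 77 rose and 11 fell, where 11.9% and 18.0% of all genes did. The calls rested on few libraries, and those over all genes fell as well. Without control replicate 2, limma called 0 higher and 1 lower (Cd180), where 45 and 66 were called over all genes. Without control replicate 3, it called 2 higher (Ctsb and Unc93b1) and 1 lower (Cd180), where 70 and 134 were called over all genes.

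Among genes whose products accompany or transport the receptors, 3 rose and 1 fell of the 10 tested, with a list median of 0.08. Without control replicate 1, 5 rose and 3 fell, with a list median of 0.06. Cd180 encodes a surface receptor that resembles TLR4 outside the cell but lacks its signalling domain, and it fell 5.52-fold. Cd180 stood at 1.07 and 1.27 FPKM in the knockouts (92 and 109 reads), against 6.43, 6.51 and 6.47 FPKM in the controls (541, 551 and 535 reads). The controls were nearly equal and far above both knockouts, and the log2 change was -1.78 with a standard error of 0.10 (limma adjusted p = 0.0044). Mast4, which overlaps Cd180 on the opposite strand, stood at 0.247 and 0.161 FPKM in the knockouts, against 0.533, 0.696 and 0.689 FPKM in the controls, and without strand their reads cannot be told apart. Ly86, the partner protein gene of Cd180, was listed at 0 in 4 libraries and at 0.337 FPKM in control replicate 1.

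Unc93b1, the chaperone that carries the nucleic acid receptors to endosomes, rose 1.87-fold. It stood at 28.0 and 27.4 FPKM in the knockouts (2300 and 2242 reads), against 15.4, 15.6 and 13.5 FPKM in the controls (1237, 1262 and 1066 reads), with a log2 change of 0.86 (limma adjusted p = 0.0148). Control replicate 1 stood with the other controls for this gene. Ctsb, the lysosomal protease cathepsin B, rose to 155 ± 1.77 FPKM in knockouts (SD, n = 2), against 83.8 ± 4.78 FPKM in controls (SD, n = 3), with a limma adjusted p of 0.0113. Fdft1, a cholesterol synthesis gene that overlaps Ctsb on the opposite strand, had 21.7 and 23.9 FPKM in the knockouts, against 19.1, 17.2 and 18.7 FPKM in the controls. Lbp, the LPS-binding protein gene, stood at 25.5 and 26.04 FPKM in the knockouts, against 20.2, 16.8 and 17.9 FPKM in the controls (log2 change 0.48, limma adjusted p = 0.0486). Lbp was not called after median-ratio scaling (limma adjusted p = 0.0559) or after quantile normalization (limma adjusted p = 0.0545). The other genes of this list that passed the filter were not called with all libraries.

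Among adaptors and proximal kinases, 1 rose and 1 fell of 22 tested, with a list median of 0.02. Without control replicate 1, 5 rose and 3 fell, with a list median of 0.07. Ikbke, a kinase that activates interferon regulatory factors, stood at 16.5 and 16.3 FPKM in the knockouts, against 10.6, 10.6 and 9.69 FPKM in the controls (log2 change 0.62, limma adjusted p = 0.0191). Ticam2, whose product TRAM links TLR4 to TRIF, fell to 2.05 and 1.81 FPKM in the knockouts, against 5.42, 4.07 and 3.87 FPKM in the controls (log2 change -0.89, limma adjusted p = 0.0374). The Ticam2 value is uncertain, since 19.0% of the 50-base stretches of its longest transcript also occur in the overlapping gene Tmed7. Irak4, the first kinase recruited to MyD88, stood at 17.4 and 20.1 FPKM in the knockouts, against 14.2, 15.7 and 19.2 FPKM in the controls, with overlapping groups (limma adjusted p = 0.433). Traf6, the ubiquitin ligase downstream of the IRAK kinases, stood at 23.9 and 24.6 FPKM in the knockouts, against 24.6, 25.9 and 27.2 FPKM in the controls (adjusted p = 0.481). Irak4 and Traf6 were thus not called.

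Of 16 NF-kB, MAP kinase and interferon regulatory factor genes, Mapk8 alone was called with all libraries. Mapk8, which encodes the kinase JNK1, fell to 21.6 and 22.3 FPKM in the knockouts, against 29.5, 29.1 and 34.1 FPKM in the controls (log2 change -0.47, limma adjusted p = 0.0472). Mapk8 was called after median-ratio scaling (limma adjusted p = 0.0483) but not after quantile normalization (limma adjusted p = 0.0508). The list median was -0.04. Without control replicate 1, none of this list rose and 3 fell, with a list median of -0.06.

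Of 15 negative regulator genes tested, 2 rose and none fell, with a list median of 0.16. Without control replicate 1, 3 rose and 1 fell, with a list median of 0.06. Irak3, a kinase-like protein that restrains signalling from the MyD88 complex, stood at 11.5 and 12.9 FPKM in the knockouts (1289 and 1437 reads), against 6.82, 6.01 and 7.04 FPKM in the controls (747, 662 and 758 reads). All 3 controls lay well below both knockouts, and the log2 change of Irak3 was 0.79 with a standard error of 0.10 (limma adjusted p = 0.0204). Irak3 overlaps Tmbim4 on the opposite strand, which had 98.3 and 99.4 FPKM in the knockouts, against 96.2, 88.3 and 85.2 FPKM in the controls. Il1rl1, the IL-33 receptor gene, whose product signals through MyD88 itself and was listed here because it can also hold adaptors back from TLR4, stood at 37.6 and 35.0 FPKM in the knockouts, against 11.1, 17.3 and 15.3 FPKM in the controls (log2 change 1.28, limma adjusted p = 0.0251). Il1rl1 is also a gene of mast cells and basophils, whose markers summed to 1101 and 1123 FPKM in the knockouts, against 522, 756 and 679 FPKM in the controls. Cpa3 supplied most of that sum, at 950 and 965 FPKM in the knockouts, against 432, 633 and 581 FPKM in the controls. Mcpt8, Cma1 and Tpsab1 were also higher in both knockouts than in every control, while Ms4a2 and Fcer1a had overlapping groups. The part of mast cells and basophils in the value of Il1rl1 was not tested.

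Of 14 genes induced by Toll-like receptor signals that passed the filter, 1 rose and none fell, with a list median of 0.04. The 1 was Il1b, the gene of interleukin 1 beta, at 5.20 and 5.19 FPKM in the knockouts (241 and 240 reads), against 1.65, 2.41 and 2.31 FPKM in the controls (75, 110 and 103 reads), a log2 change of 0.997 (limma adjusted p = 0.0251). The other 10 genes of the 24 in this list did not pass the filter. Without control replicate 1, 3 of the 14 rose and 1 fell, with a list median of -0.02.

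**Figure D4:**
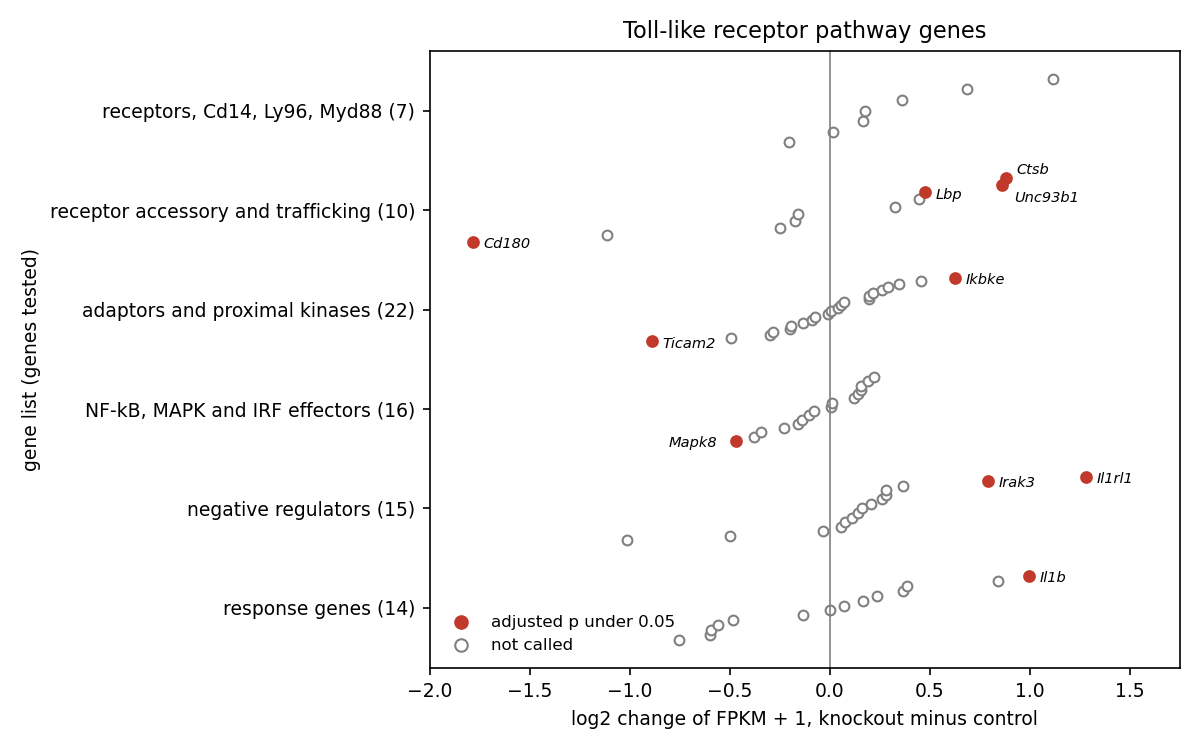
Log2 change of FPKM + 1 (knockout minus control) of each tested gene by list, red where called at a limma adjusted p under 0.05 and open where not. The 10 called pathway genes run from Cd180 at -1.78 to Il1rl1 at 1.28, and none of the 7 receptor, co-receptor and adaptor genes was called.

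Promoter sequence was shown for Myd88, the receptor system gene with the smallest p, and for Cd180 and Irak3, a called surface receptor gene and a called regulator of the MyD88 complex. Each line gives the 250 bases before the RefSeq start (GRCm38.p6), 5′ to 3′ on the gene's strand, with motif matches in capitals. Myd88 lies at chr9:119340019-119340268 (minus strand), Cd180 at chr13:102693297-102693546 (plus strand) and Irak3 at chr10:120201598-120201847 (minus strand).
Myd88: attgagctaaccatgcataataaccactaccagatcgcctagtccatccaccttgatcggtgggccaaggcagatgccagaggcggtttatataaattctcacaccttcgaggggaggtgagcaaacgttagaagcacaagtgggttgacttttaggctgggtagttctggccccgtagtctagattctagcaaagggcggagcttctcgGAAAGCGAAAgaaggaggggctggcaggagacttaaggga
Cd180: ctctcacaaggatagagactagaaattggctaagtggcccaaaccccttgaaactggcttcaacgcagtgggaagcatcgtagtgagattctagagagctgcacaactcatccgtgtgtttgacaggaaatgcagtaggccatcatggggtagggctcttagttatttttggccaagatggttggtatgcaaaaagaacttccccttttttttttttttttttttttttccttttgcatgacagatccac
Irak3: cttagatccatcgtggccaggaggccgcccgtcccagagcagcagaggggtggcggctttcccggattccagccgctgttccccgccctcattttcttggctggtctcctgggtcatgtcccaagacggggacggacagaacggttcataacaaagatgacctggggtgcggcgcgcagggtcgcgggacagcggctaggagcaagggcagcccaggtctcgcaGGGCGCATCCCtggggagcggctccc
The motifs searched on both strands were GAGGAAG (the core bound by PU.1, an ETS factor of myeloid cells), GGG and CC with any 5 bases between them (NF-kB), and a pair of GAAA with any 2 bases between them (interferon-stimulated response element core), which occurred in 10.6%, 45.8% and 2.98% of 32851 such windows. Myd88 held 1 match, to the interferon-stimulated core, starting at base -40. Irak3 held 2 overlapping matches to the NF-kB letters, starting at -26 and -25, and Cd180 held none of these letters in this window. A match is a description of sequence and not evidence of binding.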

How the data were processed

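The deposited values are FPKM computed by the authors for 31626 Ensembl genes per library. Per the submitters' processing notes, the tools included GSNAP, SAMtools, Cuffdiff and CASAVA 1.8.2, with the build mm9; the annotation, the Cuffdiff version, the treatment of reads that map to several places and the use of strand in counting were not given in the sources used here. Libraries were prepared with a stranded mRNA kit, per the labels' protocols. In 16 genes a library held 999999999, read as a failed estimate, and these genes were left out. Groups were taken from the sample titles.

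The 11780 genes that reached 1 FPKM in 2 or more libraries were tested on log2(FPKM + 1) with limma 3.58.1 (R 4.3.3), a scale that understates changes of low genes, with an intensity trend and Benjamini-Hochberg adjustment over all genes tested; calls are at an adjusted p under 0.05. The fit was also run on simulated data with independent normal noise. No simulated library stood apart as control replicate 1 does, so that run does not bear on the influence of that library. Members, pathway lists and marker lists were chosen with earlier results of these data known, and no list has a test of its own. Named were the 10 genes, Mll1, the other mouse Toll-like receptor genes, Irak4, Traf6, Unc93b1 and at most 4 called genes of each pathway list by smallest p. Ly86, the single marker genes given and some genes that overlap a named gene on the other strand were added after their values were seen. Further overlaps on the other strand were Twf1 with Irak4, Il1bos with Il1b, and Gm28914 and Gm28913 with Ikbke. Gm45542 overlapped Tlr3, Gm47009 overlapped Irak3 and AC061963.1 overlapped Mll1. Twf1 stood at 26.3 and 26.9 FPKM in the knockouts, against 27.2, 21.2 and 24.1 FPKM in the controls. Marker lists are given as summed FPKM. Those not given in the text are dendritic cell markers (97.6 and 90.1 FPKM in knockouts, 177, 207 and 175 FPKM in controls), erythroid markers (41.3 and 39.6 FPKM in knockouts, 48.4, 24.1 and 21.9 FPKM in controls) and myeloid progenitor markers (6033 and 6424 FPKM in knockouts, 3995, 3219 and 3354 FPKM in controls). Mpo, Elane, Prtn3 and Ctsg supplied most of the progenitor sum and, with Spi1, were higher in both knockouts than in every control. Cd34, Kit and Cebpa of that list were lower in both knockouts than in every control. Cd34 stood at 216 and 212 FPKM in the knockouts, against 685, 600 and 587 FPKM in the controls.

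Reads were recovered by dividing each value by its library's relative worth of 1 read and taking the largest step that brought all libraries within 0.01 of a whole number; Tlr7 gave no such step. Shared 50-base stretches, overlaps and neighbours were taken from GENCODE M21 and promoter sequences from RefSeq, for 6 of the 10 genes. Other settings tried concerned the filter, the pseudocount, the scaling, the trend, library weights, the replicate number as a block and each library left out.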

Additional observations from a re-analysis of the deposited data

How the results depend on the processing

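With all 5 libraries 0 of the 10 genes were called higher and 0 lower. The number called higher was 1 (Myd88) after median-ratio scaling and 1 (Myd88) after quantile normalization. Calls higher over all genes also went from 450 to 597 and 518 in these settings. With limma array weights, which let libraries that stand apart count less, 3 of the 10 genes (Cd14, Tlr4 and Myd88) were called higher, beside 1773 over all genes. With 1 library left out the number of the 10 genes called higher ran from 0 to 3, the 3 being reached without control replicate 1. None was called lower under any of the 14 alternatives. Pathway genes called were 7 higher and 3 lower with all libraries, 3 and 1 with no filter, and 18 and 14 with array weights. Cd180, Ticam2 and Il1b did not pass a filter of a mean of at least 5 FPKM, and the counts there were 6 and 1. With 1 library left out they ran from 0 to 16 higher and from 0 to 11 lower; the highest counts were those without control replicate 1, and none was called without knockout replicate 1 or knockout replicate 2, where the lone knockout library is assumed to vary like the controls. Without control replicate 2 the counts were 0 and 1, beside 45 and 66 over all genes. Without control replicate 3 they were 2 and 1, beside 70 and 134 over all genes. Over all genes, 450 higher and 703 lower became 238 and 259 with no filter, 1773 and 2616 with array weights, and between 0 and 1398 higher and between 0 and 2118 lower with 1 library left out. With the replicate number as a block, the counts were 0 and 0 for pathway genes and 12 and 43 over all genes. The labels do not say that a number pairs libraries: deviations of same-numbered libraries from their group means had correlations of 0.037 and 0.0123 over genes.

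The sign of the uncalled change of Tlr2 depended on the setting: -0.080 with the replicate block and from -0.11 to 0.24 with 1 library left out, negative without control replicate 2 (-0.11), control replicate 3 (-0.080) or knockout replicate 2 (-0.0062). That of Tlr7 ran from -0.47 to 0.062 with 1 library left out, the positive value being that without knockout replicate 2. The changes of Cd14 (0.77 to 1.56), Tlr4 (0.37 to 0.94) and Myd88 (0.31 to 0.40) were positive under all alternatives run, with limma adjusted p from 0.00458 to 0.511, from 0.00819 to 0.549 and from 0.00948 to 0.363. The cause of these dependences was not tested. Depth limits Tlr1, Tlr3, Tlr9 and Ly96, whose libraries held at most 55, 3, 22 and 53 reads.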
